A study of Rattus norvegicus with 10 samples.

Results

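The epithelial sodium channel and the corticosteroid response that controls it were described across the diets of a rat feeding study. The 10 genes were Scnn1a, Scnn1b, Scnn1g, Sgk1, Nedd4l, Nr3c2, Nr3c1, Hsd11b2, Fkbp5 and Tsc22d3. They were taken by gene symbol from a table of 23422 genes, and all 10 had enough reads to be tested. The channel in the apical membrane of surface cells is a route by which the distal colon takes up sodium. Aldosterone acts on it through the mineralocorticoid receptor, which switches on the kinase SGK1, and SGK1 in turn holds back NEDD4L, the ubiquitin ligase that removes the channel from the membrane. The enzyme HSD11B2 inactivates glucocorticoids, so that they do not occupy the same receptor, and in the rat distal colon corticosteroids are known to raise the beta and gamma subunits of the channel more than the alpha subunit.

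RNA was sequenced from distal colon epithelial cells of male Wistar Munich rats that EDTA had released from the last part of the colon. Cholate rats 3, 4, 7, 8 and 11 had eaten standard chow to which 1% (w/w) of sodium cholate, the salt of a primary bile acid, was added, and control rats 1, 2, 5, 6 and 9 had eaten standard chow without it. All were housed singly, had 3 days to settle in metabolic cages, and were killed after 10 days on their diet. Of 12 rats housed, 6 were switched to cholate, and from each diet the 5 with the most concentrated RNA went on to sequencing, 1 library per rat. The comparison asked how dietary cholate changed gene expression in these cells.

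Library totals ran from 14337356 to 45285762 counts. Epithelial markers summed to 23652 to 34890 CPM (read counts scaled to library size) in the cholate rats, against 16339 to 22813 CPM in the control rats, and all 10 were detected. Among them Krt20 passed the study's rule, and Vil1 and Lgals4 had an adjusted p under 0.05 (edgeR test), all higher on cholate. Epcam, Cdh1 and Krt18 averaged less on cholate than on control chow and the other epithelial markers more, so the sums do not measure the amount of epithelium. The distal hindgut gene Hoxb13 averaged 485.1 CPM on cholate and 661.6 CPM on control chow. Surface colonocyte markers summed to more on cholate, 7101 to 11669 CPM against 4920 to 6080 CPM in the control rats. Of the 10, 2 passed the study's rule, the carbonic anhydrases Car1 and Car4, as did 1.1% of all genes tested in that direction. Aqp8 rose with an adjusted p under 0.05 (edgeR test). Car1 alone averaged 2823 CPM on cholate and 866 CPM on control chow. Muc13, Cdhr5 and Ceacam1 were at log2 fold changes of 0.01, 0.06 and -0.14, so the sums do not measure the amount of surface cells. The 7 smooth muscle markers summed to 8.38 to 13.6 CPM on cholate and 42.9 to 62.2 CPM on control chow. Of these sums desmin (Des) made up 4.50 and 38.2 CPM on average, and Myh11 5.83 and 10.6 CPM. Des fell by the study's rule, and Myh11 fell with an edgeR adjusted p of 0.0138. Acta2, Tagln, Actg2, Cnn1 and Synpo2 were each under 1 CPM in both diets. The 6 endothelial markers summed to 0.987 to 4.50 CPM on cholate and 4.36 to 8.28 CPM on control chow, the 7 fibroblast markers to 0.876 to 3.64 CPM and 2.02 to 4.31 CPM with Col1a2 at 0 throughout, and the 7 neuron and glia markers to 0.313 to 1.15 CPM and 0.925 to 1.48 CPM. Goblet, T cell, B and plasma cell and macrophage markers overlapped between the diets in their sums. The part these shifts have in the results on the sodium channel and corticosteroid genes was not tested. In such bulk samples, fewer cells of a type and less RNA per cell cannot be told apart.

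Libraries of cholate rats 8 and 11 and control rat 9 stood apart from the rest. On the first principal component, which held 46.8% of the variance, they scored 79.6, 66.8 and 57.0, the library of control rat 5 scored 8.1, and the other 6 scored between -46.4 and -26.7. In the same 3 libraries long transcripts were under-represented. The length index, the slope of a library's log2 deviation on log2 exon length, was -0.37 and -0.25 in cholate rats 8 and 11 and -0.23 in control rat 9, and lay between 0.01 and 0.19 in the other 7. Results that rest on these libraries are given with and without them, a choice made after their values were seen.

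Of the 10 genes, the co-chaperone Fkbp5 rose and the glucocorticoid-induced gene Tsc22d3 fell on cholate by the study's rule, an adjusted p under 0.01 together with a change of more than 2-fold. The kinase gene Sgk1 fell as well by a wider rule, an adjusted p under 0.05 with no fold limit. The other 7 passed neither rule. Over all 12385 genes tested, 3.21% passed the study's rule, 1.1% higher and 2.12% lower, and 13.8% passed the wider rule, 6.48% higher and 7.28% lower. The median log2 fold change of the 10 was -0.12, against -0.01 over all genes tested. Below 0 lay 7 of the 10, and 6324 of the 12385 genes tested.

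**Figure D1:**
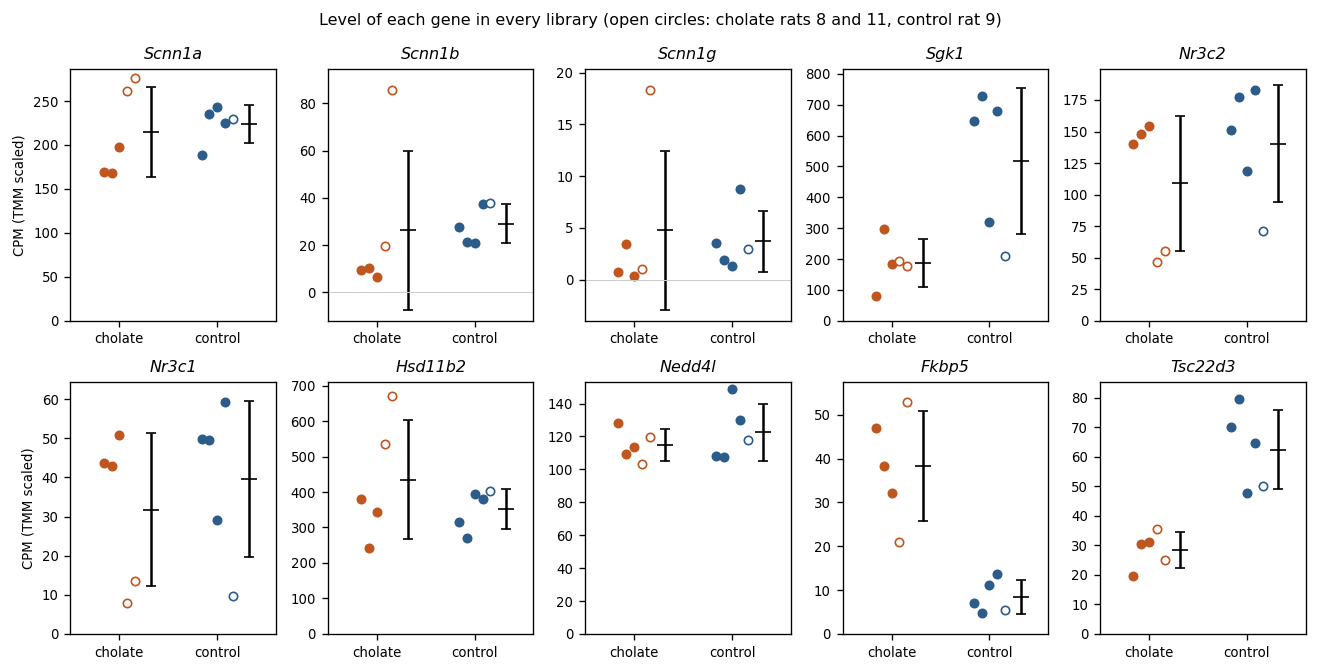
CPM after TMM scaling (vertical axes, each with its own range) of the 10 genes in every library, cholate rats left and control rats right; each point is a rat, the bar beside it the mean ± SD of 5 rats, and open circles mark cholate rats 8 and 11 and control rat 9. Fkbp5 (21.0 to 52.9 CPM on cholate, 4.79 to 13.6 CPM on control chow) and Tsc22d3 (19.8 to 35.5 CPM on cholate, 47.9 to 79.7 CPM on control chow) have no overlap between diets.

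Levels below are CPM on the TMM scale, listed in the order cholate rats 3, 4, 7, 8 and 11 and control rats 1, 2, 5, 6 and 9. Each change is a log2 fold change, cholate divided by control, followed by its approximate standard error (SE) and 95% interval. Gene positions are those of rn6.

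The channel itself gave no diet effect by either rule over all 10 libraries. Scnn1a (Entrez 25122, chr4:157834339-157860472, plus strand), the alpha subunit that every functional channel needs, stood at 169.7, 168.2, 197.4, 261.5 and 276.1 CPM in the cholate rats, against 188.0, 234.8, 242.7, 224.9 and 229.4 CPM in the control rats. The cholate rats spread to both sides of the control rats, with rats 3 and 4 below all of them and rats 8 and 11 above. The means were 214.6 ± 51.1 CPM on cholate and 223.9 ± 21.1 CPM on control chow (SD, n = 5 each), a log2 fold change of -0.06 (SE 0.16, interval -0.42 to 0.29, edgeR adjusted p 0.849). Without the 3 libraries that stood apart, Scnn1a averaged 188.4 ± 17.2 CPM in 3 cholate rats and 231.2 ± 26.5 CPM in 4 control rats. The log2 fold change there was -0.29 (SE 0.12, edgeR adjusted p 0.0865), which passed neither rule.

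Scnn1b (Entrez 24767, chr1:191829547-191883991, plus strand) encodes the beta subunit, and its neighbour Scnn1g (Entrez 24768, chr1:191704397-191738271, plus strand) the gamma subunit. Scnn1b measured 9.41, 10.4, 6.43, 19.6 and 85.9 CPM in the cholate rats, against 27.8, 21.5, 21.1, 37.4 and 37.9 CPM in the control rats. In 4 of the 5 cholate rats it lay below every control rat, and in cholate rat 11 it lay above every control rat. The mean was 26.3 ± 33.6 CPM on cholate and 29.1 ± 8.22 CPM on control chow (SD, n = 5 each), with a log2 fold change of -0.16 (SE 0.64, interval -1.57 to 1.26, edgeR adjusted p 0.907). Without cholate rat 11 the log2 fold change of Scnn1b was -1.37 (adjusted p 0.0203), which passes the wider rule. This was the only 1 of the 10 fits without 1 rat in which Scnn1b passed it. That fit leaves out the value that goes against the other 4 cholate rats, so its p is a description and no further test.

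Without cholate rats 8 and 11 and control rat 9, Scnn1b averaged 9.25 ± 2.21 CPM in 3 cholate rats and 27.9 ± 7.75 CPM in 4 control rats. That difference, -1.60 on the log2 scale (SE 0.25), passed the study's rule by the edgeR test with an adjusted p of 0.00275. This set of libraries was chosen after the values were seen and also leaves out cholate rat 11. For Scnn1b its p is therefore a description and no further test. In the fit of those 7 libraries 6.66% of 12620 genes passed the study's rule, 2.03% higher and 4.63% lower, and 29.4% passed the wider rule, 13.6% higher and 15.8% lower. Of the 10 genes, 3 passed the study's rule there, Fkbp5 higher and Scnn1b and Tsc22d3 lower, and Sgk1 was added by the wider rule.

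Scnn1g was the least abundant of the 10 genes, with 12 to 319 reads per library. It measured 0.775, 3.43, 0.321, 1.06 and 18.4 CPM in the cholate rats, against 3.58, 1.92, 1.31, 8.72 and 2.99 CPM in the control rats. Cholate rat 11 was again the highest of all 10, and cholate rats 3, 7 and 8 were below every control rat. Its log2 fold change was 0.33 (SE 0.96, interval -1.79 to 2.45, edgeR adjusted p 0.867) over 10 libraries and -1.30 (adjusted p 0.272) over the 7, so neither its direction nor a change of several fold could be settled at this spread. The coefficient of variation of Scnn1g was 160% on cholate and 79.5% on control chow, and that of Scnn1b was 128% and 28.2%. The median over all genes tested was 28.9% on cholate and 21.7% on control chow.

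**Figure D2:**
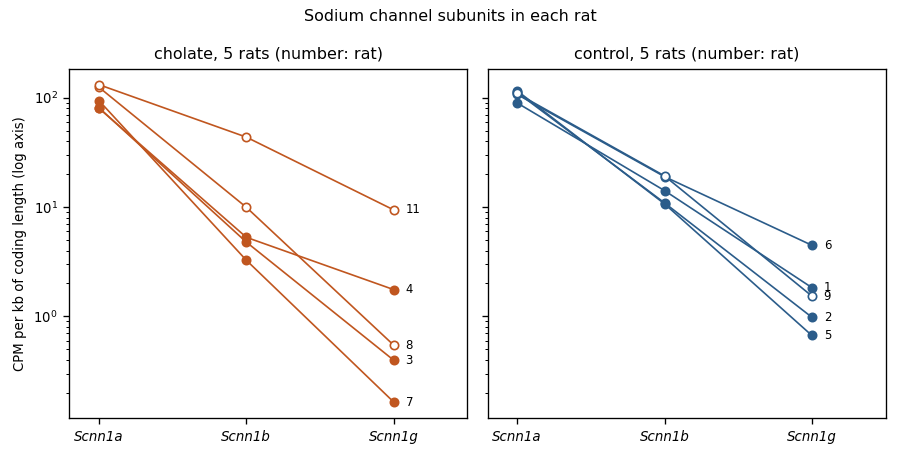
CPM per kilobase of coding length (log axis) of the 3 channel subunits, with a line for each rat, cholate rats in the left panel and control rats in the right, and open circles for cholate rats 8 and 11 and control rat 9. Scnn1a is the highest and Scnn1g the lowest in every rat, and cholate rat 11 has the highest Scnn1b and Scnn1g of all 10.

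Within each library the subunits kept the order alpha, beta, gamma when levels were set per kilobase of coding length or of exon length. Per coding kilobase Scnn1a exceeded Scnn1b by 3.02-fold to 28.4-fold in the cholate rats and by 5.64-fold to 10.8-fold in the control rats. Per kilobase of exon length, untranslated parts included, the excess was 1.54-fold to 14.5-fold in the cholate rats and 2.89-fold to 5.51-fold in the control rats. As log2 ratios per coding kilobase the means were 3.61 ± 1.21 on cholate and 2.89 ± 0.46 on control chow (SD, n = 5 each), a difference of 0.72. An exact permutation test, two-sided over every assignment of the rats to the diets, gave p = 0.254, and p = 0.619 after adjustment over the 6 ratios tested. The smallest p such a test can give is 0.00794. Without cholate rat 11 the difference was 1.22 with an adjusted exact permutation p of 0.0476. That rat had the lowest ratio on cholate, through its Scnn1b, and every other cholate rat was above every control rat. Leaving it out therefore set the outcome, and this p is a description only.

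The log2 ratio of Scnn1g to Scnn1b averaged -3.04 ± 1.11 on cholate and -3.18 ± 0.72 on control chow (exact permutation p = 0.833, n = 5 each). That of Scnn1a to Scnn1g averaged 6.65 ± 1.99 on cholate and 6.07 ± 1.07 on control chow (exact permutation p = 0.579, n = 5 each). Neither differed by more than the spread between rats.

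Among the regulators of the channel in the cell, the kinase and the ligase differed in how they varied. Sgk1 (Entrez 29517, chr1:24185451-24302309, minus strand), the serum- and glucocorticoid-regulated kinase that aldosterone induces, measured 81.7, 298.3, 184.9, 192.6 and 178.0 CPM in the cholate rats, against 649.0, 728.8, 319.6, 680.9 and 209.1 CPM in the control rats. In 4 of the 5 cholate rats it was below the lowest control rat, rat 9, and cholate rat 4 lay between control rats 9 and 5. The mean fell to 187.1 ± 76.8 CPM on cholate, against 517.5 ± 236.1 CPM on control chow (SD, n = 5 each), a log2 fold change of -1.47 (SE 0.39, interval -2.33 to -0.60). This is 2.77-fold lower, with an edgeR adjusted p of 0.0317.

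The wider call of Sgk1 was lost on leaving out any 1 of cholate rats 7, 8 and 11 and control rats 1, 2 and 6, with adjusted p from 0.0531 to 0.0824 and the log2 fold change between -1.31 and -1.46. Over the 7 libraries it was -1.63 (adjusted p 0.0224). With other tools Sgk1 passed the study's rule, at -1.45 with DESeq2 (adjusted p 0.00251) and at -1.72 with limma-voom quality weights (adjusted p 0.00266). The exons of Sgk1 share bases with an antisense long noncoding RNA gene, and no source used here says whether the counting used strand.

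Nedd4l (Entrez 291553, chr18:60392376-60719720, plus strand) encodes the ligase that marks the channel for removal. It measured 128.0, 109.5, 113.4, 103.5 and 119.6 CPM in the cholate rats, against 108.4, 107.7, 148.8, 130.0 and 117.7 CPM in the control rats, and the diets overlapped. The log2 fold change of Nedd4l was -0.09 (SE 0.12, interval -0.36 to 0.17, edgeR adjusted p 0.664), the narrowest interval of the 10 genes. The log2 ratio of Sgk1 to Nedd4l per kilobase averaged 1.27 ± 0.77 on cholate and 2.61 ± 0.90 on control chow (n = 5 each), with an exact permutation p of 0.0556, or 0.333 after adjustment over the 6 ratios.

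**Figure D3:**
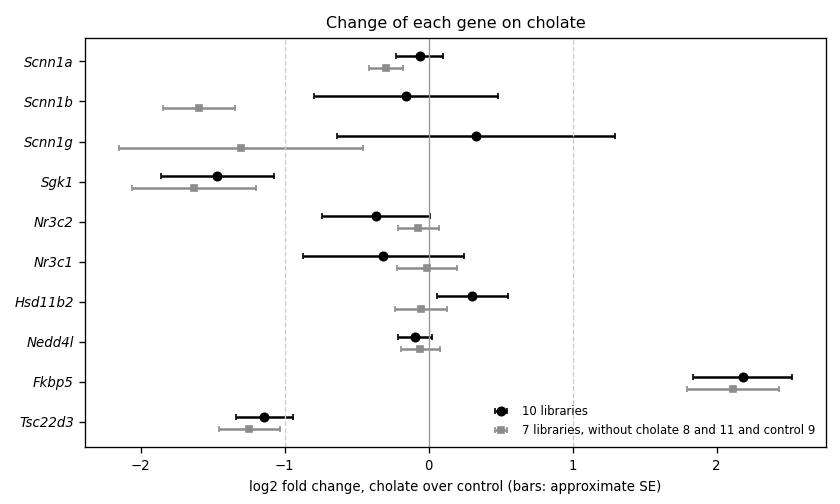
Log2 fold change of cholate over control (horizontal axis) for each of the 10 genes, with approximate SE bars, from all 10 libraries (black circles) and from the 7 without cholate rats 8 and 11 and control rat 9 (grey squares); dashed lines mark a 2-fold change. Scnn1b is at -0.16 with 10 libraries and -1.60 with 7, while Fkbp5 stays at 2.18 and 2.12 and Tsc22d3 at -1.14 and -1.25.

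Both corticosteroid receptors varied with the libraries that stood apart. Nr3c2 (Entrez 25672, chr19:34408275-34761003, minus strand), the mineralocorticoid receptor that binds aldosterone, measured 140.4, 147.8, 154.1, 46.4 and 55.4 CPM in the cholate rats, against 151.5, 177.1, 119.0, 183.2 and 71.5 CPM in the control rats. The lowest 3 of the 10 values were those of cholate rats 8 and 11 and control rat 9. Its log2 fold change was -0.37 (SE 0.37, interval -1.19 to 0.46, edgeR adjusted p 0.573). Without those libraries Nr3c2 averaged 155.7 ± 7.61 CPM in 3 cholate rats and 163.5 ± 29.3 CPM in 4 control rats, a log2 fold change of -0.07 (adjusted p 0.736).

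Nr3c1 (Entrez 24413, chr18:31728373-32704022, minus strand), the glucocorticoid receptor, measured 43.6, 42.9, 50.8, 7.83 and 13.6 CPM in the cholate rats, against 49.9, 49.6, 29.2, 59.3 and 9.69 CPM in the control rats. Again cholate rats 8 and 11 and control rat 9 held the lowest 3 values. The log2 fold change of Nr3c1 was -0.31 (SE 0.56, interval -1.54 to 0.91, edgeR adjusted p 0.770). Over the 7 libraries the means were 48.3 ± 4.54 CPM on cholate and 48.7 ± 12.9 CPM on control chow, a log2 fold change of -0.01. Nr3c1 has an exon length of 7709 bases and Nr3c2 of 5758 bases. With the length index of each library as a covariate, chosen after the data were seen, the log2 fold change of Nr3c1 was 0.29 (edgeR adjusted p 0.0249), opposite in sign to that without it.

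The ratio of Nr3c1 to Nr3c2 per kilobase averaged -1.69 ± 0.38 on cholate and -1.75 ± 0.52 on control chow on the log2 scale (exact permutation p = 0.802, n = 5 each). It did not differ by more than the spread between rats. Nr3c2 exons share bases with an antisense long noncoding RNA gene. The span of Nr3c1 holds or overlaps 9 other genes, none of which shares its exon bases.

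Hsd11b2 (Entrez 25117, chr19:37476083-37481326, plus strand), the enzyme that inactivates corticosterone in aldosterone target cells, measured 381.6, 242.1, 344.9, 535.0 and 669.8 CPM in the cholate rats, against 314.5, 269.5, 393.3, 381.1 and 401.7 CPM in the control rats. Cholate rats 8 and 11 were the highest of all 10 and cholate rat 4 the lowest. The log2 fold change was 0.30 (SE 0.25, interval -0.24 to 0.85, edgeR adjusted p 0.468) over 10 libraries and -0.05 (adjusted p 0.856) over 7. The log2 ratio of Hsd11b2 to Nr3c2 averaged 3.27 ± 1.37 on cholate and 2.57 ± 0.73 on control chow (exact permutation p = 0.310, n = 5 each).

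**Figure D4:**
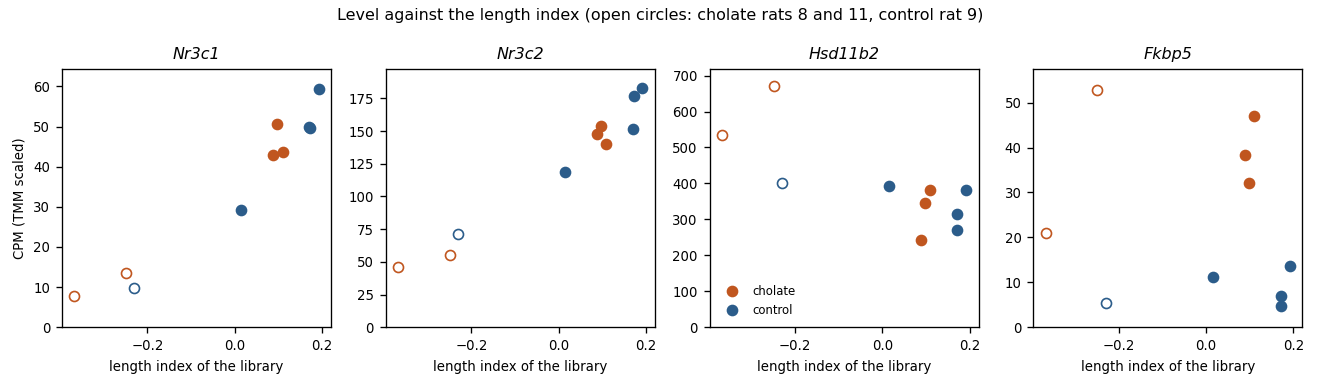
CPM of Nr3c1, Nr3c2, Hsd11b2 and Fkbp5 (vertical axes, each with its own range) against the length index of the library (horizontal axis, slope of log2 deviation on log2 exon length), a point per rat with cholate in orange and control in blue, and open circles for cholate rats 8 and 11 and control rat 9. The receptor genes are lowest in the 3 libraries with an index of -0.23 or less, and Fkbp5 separates the diets on both sides of the plot.

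Fkbp5 and Tsc22d3 were the only 2 of the 10 genes whose cholate and control values did not overlap, as was the case for 13.1% of all genes tested, 6.3% higher and 6.8% lower on cholate. Both are known as genes that the glucocorticoid receptor switches on, and they went in opposite directions. Fkbp5 (Entrez 361810, chr20:7976704-8097290, minus strand) encodes an HSP90 co-chaperone that lowers the hormone affinity of the receptor. It measured 46.9, 38.3, 32.2, 21.0 and 52.9 CPM in the cholate rats, against 7.05, 4.79, 11.2, 13.6 and 5.50 CPM in the control rats. Every cholate rat was above every control rat, with the closest pair at 21.0 CPM in cholate rat 8 and 13.6 CPM in control rat 6. The mean rose to 38.3 ± 12.5 CPM on cholate, against 8.41 ± 3.79 CPM on control chow (SD, n = 5 each), a log2 fold change of 2.18 (SE 0.34, interval 1.43 to 2.94), or 4.54-fold, with an edgeR adjusted p of 0.00318.

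Tsc22d3 (Entrez 83514, chrX:111884285-111944693, minus strand) encodes GILZ, a leucine zipper protein that glucocorticoids and aldosterone induce. It measured 19.8, 30.3, 31.1, 35.5 and 24.9 CPM in the cholate rats, against 70.0, 79.7, 47.9, 64.6 and 50.1 CPM in the control rats. The highest cholate rat, rat 8, was below the lowest control rat, rat 5. The mean fell to 28.3 ± 6.08 CPM on cholate, against 62.4 ± 13.5 CPM on control chow (SD, n = 5 each), a log2 fold change of -1.14 (SE 0.20, interval -1.58 to -0.70), or 2.20-fold lower, with an edgeR adjusted p of 0.00500.

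Leaving out 1 rat moved some of these calls across the 1% limit. Fkbp5 missed it without control rat 1 (log2 fold change 2.12, adjusted p 0.0124) and without control rat 2 (2.03, adjusted p 0.0104). Tsc22d3 missed it without cholate rat 4 or 7 or control rat 1, 2 or 6, with adjusted p from 0.0125 to 0.0163. Both stayed past the wider rule in every such fit. Over the 7 libraries Fkbp5 was at 2.12 (adjusted p 0.00237) and Tsc22d3 at -1.25 (adjusted p 0.00371).

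The start sites of the 3 genes that passed either rule are shown because the receptors act on such genes through DNA. RefSeq promoters on GRCr8, 250 bases before to 50 bases after a start site, were found for 7 of the 10 genes, 12 promoters in all. The full palindrome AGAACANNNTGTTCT, a strong glucocorticoid response element, was in 5 of 33469 rat promoters (0.0149%), searched on both strands, and in none of the 12. Its core ACANNNTGT was in 6.86% of all promoters and in 1 of the 12, a promoter of Tsc22d3, and a TATA box (TATAAA on either strand) was in 14.2% of all and in 3 of the 12, sites 1 and 3 of Sgk1 and site 3 of Tsc22d3. In the sequences, capitals mark a core or a TATA box, and Fkbp5 has neither in this window. A match is a string of letters and not a shown binding site. Sgk1 is shown at start site 3, counted from the 5′ end of the gene (chr1:24804782-24805081), Fkbp5 at its single one (chr20:6543506-6543805), and Tsc22d3 at site 2 (chrX:109065381-109065680) and site 3 (chrX:109009985-109010284), all on the minus strand of GRCr8 and 5′ to 3′.
Sgk1 start site 3: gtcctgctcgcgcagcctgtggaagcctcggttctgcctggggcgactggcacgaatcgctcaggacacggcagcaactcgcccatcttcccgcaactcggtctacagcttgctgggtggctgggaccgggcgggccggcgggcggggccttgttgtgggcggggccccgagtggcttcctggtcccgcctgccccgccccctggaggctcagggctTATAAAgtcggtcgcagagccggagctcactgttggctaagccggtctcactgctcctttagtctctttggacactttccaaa
Fkbp5 start site: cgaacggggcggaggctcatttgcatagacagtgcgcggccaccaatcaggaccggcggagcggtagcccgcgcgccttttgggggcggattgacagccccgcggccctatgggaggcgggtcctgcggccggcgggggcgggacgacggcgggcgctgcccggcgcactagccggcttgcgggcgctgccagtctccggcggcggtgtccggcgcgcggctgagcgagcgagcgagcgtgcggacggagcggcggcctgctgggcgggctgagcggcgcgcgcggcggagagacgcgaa
Tsc22d3 start site 2: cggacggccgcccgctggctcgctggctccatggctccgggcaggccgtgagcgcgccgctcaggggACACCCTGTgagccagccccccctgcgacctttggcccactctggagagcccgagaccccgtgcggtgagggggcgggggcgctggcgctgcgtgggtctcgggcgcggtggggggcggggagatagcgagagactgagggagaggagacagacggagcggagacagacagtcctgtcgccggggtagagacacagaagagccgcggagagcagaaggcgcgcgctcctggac
Tsc22d3 start site 3: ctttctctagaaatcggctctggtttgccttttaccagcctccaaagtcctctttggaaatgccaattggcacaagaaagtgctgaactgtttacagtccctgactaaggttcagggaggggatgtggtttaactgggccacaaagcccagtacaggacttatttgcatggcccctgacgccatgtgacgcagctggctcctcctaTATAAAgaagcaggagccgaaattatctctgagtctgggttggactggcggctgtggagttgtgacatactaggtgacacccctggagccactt

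In the order of levels, Hsd11b2 and Sgk1 led. Per kilobase of coding length, Hsd11b2 was highest on cholate at 348.9 ± 135.1 CPM, above Sgk1 in all 5 rats. On control chow Sgk1 averaged 286.5 ± 130.7 and Hsd11b2 282.5 ± 46.2 CPM per kilobase, and their ranges overlapped. Scnn1a came next in both diets, at 102.2 ± 24.3 CPM per kilobase on cholate, where it overlapped Sgk1, and at 106.6 ± 10.1 on control chow, where it overlapped Tsc22d3. Nedd4l, Tsc22d3 and Nr3c2 lay between 38.5 and 39.8 CPM per kilobase on cholate and did not differ beyond their spread there. On control chow Tsc22d3 was at 86.5 ± 18.6 CPM per kilobase, above Nr3c2 at 49.8 ± 16.3 in all 5 rats. Fkbp5 stood seventh on cholate with 26.9 ± 8.78 CPM per kilobase, ahead of Scnn1b and Nr3c1, and ninth on control chow with 5.91 ± 2.67, behind both. Scnn1g was last in both, at 2.45 ± 3.94 on cholate and 1.90 ± 1.51 CPM per kilobase on control chow. Some of this order turned with the length used. Per kilobase of exon length, Tsc22d3 averaged 9.06 CPM on cholate, below Nr3c2 at 18.9 and Nedd4l at 27.3, and 20.0 CPM on control chow, below Nr3c2 at 24.4 and Nedd4l at 29.1. On that scale Fkbp5 came after Scnn1b on cholate, at 7.3 against 9.0 CPM, and Hsd11b2 was above Sgk1 in 4 of the 5 cholate rats. The first 3 places and the last kept their genes in both diets.

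In a list of 38 genes of channel regulation and sodium absorption, 37 were tested, 1 passed the study's rule and 6 the wider rule, 4 higher and 2 lower, and the median log2 fold change was 0.01. The shares, 2.7% and 16.2%, were near the 3.21% and 13.8% of all genes tested. Sgk2, a relative of Sgk1 in the same kinase family, rose. It measured 18.2, 25.9, 26.2, 16.3 and 13.4 CPM in the cholate rats, against 8.31, 4.64, 5.15, 5.31 and 4.08 CPM in the control rats, and the diets did not overlap. Its mean rose 3.64-fold to 20.0 ± 5.77 CPM on cholate, against 5.50 ± 1.64 CPM on control chow (log2 fold change 1.86, SE 0.26, edgeR adjusted p 0.00188, n = 5 each), the reverse of the direction of Sgk1.

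The family members Ndrg1 and Ndrg2, both known substrates of SGK1, moved in opposite directions under the wider rule. Ndrg1 measured 485.5, 373.1, 400.6, 93.6 and 67.3 CPM in the cholate rats, against 79.0, 76.2, 75.4, 78.4 and 46.2 CPM in the control rats. Its mean was 284.0 ± 190.6 CPM on cholate and 71.0 ± 13.99 CPM on control chow (log2 fold change 2.00, edgeR adjusted p 0.0241), and cholate rats 8 and 11 lay far below the other 3 cholate rats. Without the libraries that stood apart it rose by 2.47 on the log2 scale (adjusted p 2.17e-05). Ndrg2, with no overlap between diets, fell to 131.1 ± 13.9 CPM on cholate, against 204.2 ± 9.23 CPM on control chow (log2 fold change -0.64, edgeR adjusted p 0.00341).

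Cnksr3, a scaffold that aldosterone induces and that assembles SGK1 with the channel, fell by 0.97 on the log2 scale (edgeR adjusted p 0.0310). It measured 10.6, 16.8, 23.3, 16.3 and 15.5 CPM in the cholate rats, against 37.6, 46.3, 23.8, 32.8 and 21.2 CPM in the control rats, so that only cholate rat 7 was above any control rat. Ywhae, a 14-3-3 protein of the kind that binds phosphorylated NEDD4L, rose by 0.41 (adjusted p 0.0163), and Fxyd3, a modulator of the sodium pump, rose by 0.87 (adjusted p 0.0331). Exons of both share bases with antisense protein-coding genes, Doc2b and Lgi4. Fxyd3 was highest in cholate rats 8 and 11, at 399.9 and 381.0 CPM, and over the 7 libraries its rise was 0.59 (edgeR adjusted p 0.0123). Some of these calls did not survive leaving out 1 rat or another scaling. That of Ndrg1 was lost without cholate rat 4 or 7 or control rat 1, 2, 5 or 6 (adjusted p 0.0524 to 0.0599), that of Cnksr3 without cholate rat 3, 4, 8 or 11 or control rat 1, 2 or 6 (0.0518 to 0.0822), that of Ywhae with library size alone as the scaling (0.0664), and that of Fxyd3 without cholate rat 4 or 11 or control rat 1, 2, 5 or 6 (0.0511 to 0.0867).

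Of the genes of sodium uptake chosen whatever their result, 4 are given here and passed neither rule. Fxyd4, a sodium pump modulator known as corticosteroid hormone induced factor, averaged 1062 ± 423 CPM on cholate and 1260 ± 212 CPM on control chow (log2 fold change -0.25, interval -0.79 to 0.29). In the 7 libraries it was at -0.55 (edgeR adjusted p 0.0448), and at -0.49 (adjusted p 0.0684) without control rat 5 as well. The protease Prss8, which activates the channel, was at 0.01 (interval -0.34 to 0.37), and the deubiquitinase Usp2, which takes ubiquitin off it, at -0.23 (interval -1.14 to 0.67). The colonic proton-potassium pump Atp12a was at -0.52 (interval -1.45 to 0.40). Over the 7 libraries Prss8, Usp2 and Atp12a passed neither rule (edgeR adjusted p 0.525, 0.290 and 0.498).

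**Figure D5:**
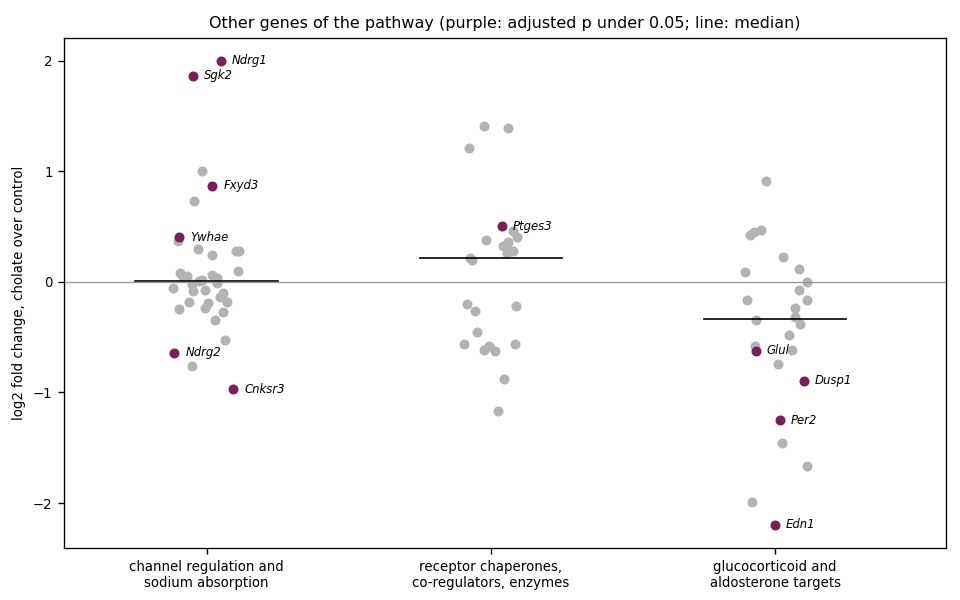
Log2 fold change of cholate over control (vertical axis) for each tested gene of 3 lists, channel regulation and sodium absorption (37 genes), receptor chaperones, co-regulators and steroid enzymes (25) and glucocorticoid and aldosterone targets (26); purple points have an adjusted p under 0.05 and lines are list medians of 0.01, 0.22 and -0.33. The 4 purple points of the target list, Edn1, Per2, Dusp1 and Glul, all lie below 0.

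Steroid receptor chaperones, co-regulators and steroid enzymes, 25 genes tested, held no gene past the study's rule and 1 past the wider rule. That gene, Ptges3, the p23 co-chaperone of HSP90, rose by 0.50 on the log2 scale (edgeR adjusted p 0.0409), and the list's median was 0.22. Its call was lost without cholate rat 4, 7 or 11 or control rat 1, 2, 5 or 6 (adjusted p 0.0663 to 0.106), with upper quartile scaling (0.0605) and with no filter on low counts (0.0535). The share past the wider rule was 4%, against 13.8% of all genes. Over the 7 libraries 1 of the 25 fell by the study's rule, and the wider rule took 6 higher and 3 lower, 36% of the list against 29.4% of all genes in that fit.

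Among known glucocorticoid and aldosterone targets outside the 10, the genes that passed a rule had fallen. Of 32 genes 26 were tested, 19 of them with a log2 fold change below 0, where 6324 of all 12385 genes tested were below 0. The median was -0.33 against -0.01 over all genes. By the study's rule 1 fell, 3.85% of the list, against 2.12% of all genes lower and 3.21% in both directions. By the wider rule 4 fell and none rose. With the edgeR test, 15.4% of the list passed the wider rule, close to the 13.8% of all genes in both directions. All of that 15.4% was lower, where 7.28% of all genes were lower. Over the 7 libraries 6 fell by the study's rule, 23.1% of the list, against 4.63% of all genes lower and 6.66% in both directions. By the wider rule 10 fell there and none rose, 38.5% of the list against 15.8% of all genes lower. In that fit the share of all genes past the wider rule was itself higher, 29.4% in both directions together.

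Edn1, endothelin 1, which aldosterone induces in collecting duct cells, was the gene of this list past the study's rule. It measured 17.9, 4.31, 12.6, 10.5 and 8.43 CPM in the cholate rats, against 59.4, 58.0, 38.3, 55.8 and 34.4 CPM in the control rats, with no overlap. The mean fell to 10.7 ± 5.02 CPM on cholate, against 49.2 ± 11.9 CPM on control chow (log2 fold change -2.20, SE 0.34, edgeR adjusted p 0.00302, n = 5 each). Its adjusted p was 0.0102 without control rat 1 and 0.0107 without control rat 2, past the wider rule only. Beside it, 1 of the 6 endothelial markers, Vwf, fell by the study's rule, to 1.10 CPM on cholate against 3.60 CPM on control chow, the summed markers were at 0.987 to 4.50 CPM on cholate and 4.36 to 8.28 CPM on control chow, and Cdh5 and Kdr were under 0.1 CPM on average in both. Their part in the change of Edn1 was not tested.

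Glul, glutamine synthetase, fell to 632.9 ± 53.4 CPM on cholate, against 975.7 ± 80.6 CPM on control chow (log2 fold change -0.62, edgeR adjusted p 0.00409), with no overlap between diets. The clock gene Per2 fell by 1.25 on the log2 scale (adjusted p 0.0160), and 3 of the 5 cholate rats were below every control rat. Dusp1, a phosphatase that acts on MAP kinases, fell by 0.89 (adjusted p 0.0430), with 4 of 5 cholate rats below every control rat. The call of Dusp1 was lost without cholate rat 3, 4 or 7 or control rat 1, 2 or 6 (adjusted p 0.0788 to 0.108). Dusp1 stood at 276.9 and 293.4 CPM in cholate rats 8 and 11, and at 136.6 to 152.7 CPM in cholate rats 3, 4 and 7. Over the 7 libraries Dusp1 was at -1.41 (edgeR adjusted p 0.000867) and Per2 at -1.20 (adjusted p 0.00195). Both passed the study's rule there, in a set of libraries chosen after the values were seen.

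Of the other targets that were named whatever their result, Per1 was at -0.61 (interval -1.43 to 0.21), Klf9 at -0.58 (interval -1.74 to 0.58) and Zbtb16 at -1.99 (interval -3.75 to -0.23, edgeR adjusted p 0.124). Zbtb16, a strongly glucocorticoid-induced transcription factor gene, was near the detection limit, with 0 to 152 reads per library. Over the 7 libraries Per1 fell by 1.20 (adjusted p 0.0128) and Zbtb16 by 1.92 (adjusted p 0.00633). Klf9 was at -0.34 there (adjusted p 0.392), and at -0.56 (adjusted p 0.00707) without control rat 5 as well.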

How the data were processed

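Reads of strand-specific poly(A) libraries from 10 rats went through bcl2fastq 1.8.4 and BWA-MEM 0.7.12-r1039 with rn6 as the genome, per the submitters' processing notes and the series' design text. No source used here names the counting program. Raw counts were deposited for each gene, with the authors' normalized signal (TMM scaling, edgeR 3.16.2) beside them. The deposited length column equals the coding length of all 23422 genes, so levels between genes are per coding kilobase, where an exon length had been planned. All per-sample columns were mapped (0 left unused).

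After filterByExpr by diet and TMM scaling, counts were tested over 12385 genes with the edgeR 4.0.16 quasi-likelihood test (R 4.3.3, limma 3.58.1, DESeq2 1.42.0), diet as the only term, with Benjamini-Hochberg adjustment over all genes. The SE is approximate, the log2 fold change over the root of F. The common biological coefficient of variation was 34.3%. Ratios used a pseudocount of 0.1 CPM and exact permutation tests. A count of 0 allows up to 3 counts, 0.0616 CPM in the deepest library and 0.228 CPM in the shallowest, counting error only. The scripts were tested on simulated data.

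The 10 genes and the lists were chosen with earlier results of these data known. The genes named are all 10, those of the other lists past either rule (at most 8 a list), and Fxyd4, Usp2, Prss8, Atp12a, Per1, Klf9, Dusp1 and Zbtb16 whatever their result. The rule took 19 genes outside the 10, of which 1 is not reported here. No rat number is shared between diets. Alternatives were other scalings, filters, tools, pseudocounts and left-out rats.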

Additional observations from a re-analysis of the deposited data

Results flagged for a closer look

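In 5 of 70 groups of 5 rats (35 genes or ratios, each in both diets), 1 rat lay far from the others, its gap to the nearest rat over the group's whole range being above 0.71. Chance flags about 1 in 20 groups, so a few such rats would appear with no cause. Cholate rat 11 had 85.9 CPM of Scnn1b, where the nearest cholate rat had 19.6 CPM. The same rat had 18.4 CPM of Scnn1g, where the nearest cholate rat had 3.43 CPM. Its library was the shallowest, with 14337356 counts, and is among those that stood apart on the first principal component. Cholate rat 8, which stood apart as well, had 1.06 CPM of Scnn1g. Why cholate rat 11 differed was not tested.

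Among the other genes, Sgk2 in control rat 1 was at 8.31 CPM, where the nearest control rat had 5.31 CPM and every cholate rat had more. Ndrg1 in control rat 9 was at 46.2 CPM, where the nearest control rat had 75.4 CPM. Usp2 in control rat 2 was at 17.7 CPM, where the nearest control rat had 9.52 CPM, and no cholate rat reached that level.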

How the results depend on the processing

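No paired analysis was possible because cholate and control rats carry different numbers. The 398 genes past the study's rule became 241 where the mean had to reach 5 CPM, 788 with DESeq2, 1157 with limma-voom quality weights, 840 without cholate rats 8 and 11 and control rat 9, 1003 without these and control rat 5, 1016 with the length index as a covariate, and 168 to 450 on leaving out 1 rat. The 1704 past the wider rule became 2669, 4605, 3707, 4865 and 5394 under DESeq2, limma-voom, the smaller sets and the covariate, and 969 to 2120 on leaving out 1 rat. Of the 10 genes, the 2 past the study's rule became 3 with DESeq2, which added Sgk1 (-1.45), 4 with limma-voom, which added Scnn1b (-1.60) and Sgk1 (-1.72), and 0 to 2 on leaving out 1 rat, with 0 without control rat 1 or 2. The 3 past the wider rule became 2 to 3 on leaving out 1 rat. Sgk2 passed the study's rule in all 20 alternatives, and Fkbp5 and Tsc22d3 the wider rule in all 20. With the covariate Sgk1 was at -1.17 and passed neither rule. The cause of these moves was not tested.

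Log2 fold changes near 0 turned sign. Prss8 was at -0.024 with upper quartile scaling, -0.060 with library size alone, -0.018 with the 5 CPM filter and -0.084 with limma-voom, and -0.11, -0.061 and -0.14 in the 7 libraries, the 6 and the covariate fit. In the same order Scnn1g was at -1.69 with limma-voom and at -1.30, -1.58 and -0.45, and Hsd11b2 was at -0.017 with limma-voom and -0.050 in the 7 libraries. Nedd4l was at 0.049 in the 6 libraries, and Nr3c1 at 0.29 and Klf9 at 0.033 with the covariate. On leaving out 1 rat the ranges were -0.079 to 0.080 for Prss8, -1.36 to 0.94 for Scnn1g, -0.18 to 0.016 for Scnn1a, -1.37 to 0.098 for Scnn1b and -0.43 to 0.024 for Usp2. Differences of log2 ratios ranged from -0.23 to 0.42 (Scnn1g to Scnn1b), -0.16 to 0.22 (Nr3c1 to Nr3c2) and 0.41 to 1.22 (Scnn1a to Scnn1b), and Hsd11b2 to Nr3c2 was at -0.0046 in the 7 libraries. Scnn1g and Zbtb16 gave no value with the 5 CPM filter. Their lowest libraries held 12 and 0 reads.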

Other observations

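The genes most alike to 4 of the 10 across rats were read as a description, from Pearson's r of log2 CPM over 10 libraries after removing each diet's mean, among 9274 genes with a mean of at least 5 CPM. All values share libraries, depth and the length index. For Scnn1a they were Esrra (0.976), Emc10 (0.948) and Ift172 (0.933). For Scnn1b they were Rtf1 (0.954), Resp18 (0.942) and Bace2 (0.941), and for Scnn1g Atoh1 (0.960), Sbspon (0.924) and Txndc5 (0.90). For Sgk1 they were Irf2bpl (0.969), Plekha8 (0.931) and Asah1 (0.896). Of these 12 genes, Plekha8 rose on cholate by the wider rule (log2 fold change 0.56, edgeR adjusted p 0.0309), and the others passed neither rule.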
